A study of Mus musculus with 16 samples.

Results

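Fat depots of the mouse carry a molecular record of where in the body they formed, and 9 developmental transcription factors known for marking that record were followed in brown adipose tissue (BAT) and gonadal white adipose tissue (gWAT) with and without the glycolytic enzyme Pgam1. The 9 genes were chosen by name: Zic1, Lhx8 and Tbx15, known from brown fat, the homeobox genes Hoxa5, Hoxc8, Hoxc9 and Hoxc10, and Wt1 and Tcf21, known from visceral fat. They were found among the 22911 gene symbols of the array through the RefSeq accession of each probe, and all 9 had a probe, 11 probes in all. Lhx8 and Tbx15 had 2 probes each, and the probe with the higher mean signal over all arrays stood for the gene. The question was whether the depot pattern of these genes was still there after deletion of Pgam1.

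The study held 4 groups of 4 one-colour Agilent arrays, each array holding RNA of 1 tissue sample: BAT of wild-type littermates (BAT-WT), BAT of Adipo-Pgam1 KO mice (BAT-KO), and gWAT of both (gWAT-WT and gWAT-KO). All mice were males labelled with the strain C57BL/6NCrSlc, kept at 23 ℃ on normal chow, and 16 weeks old except replicate 4 of BAT-KO and of gWAT-KO, which was 14 weeks old. The KO mice carried floxed Pgam1 alleles and Adipoq-Cre, a Cre driven by the adiponectin promoter, which is active in adipocytes, and the tissue samples hold other cells as well. The samples were described as independent, and the labels do not say which BAT and gWAT samples came from the same mouse. Slide 1 held 3 BAT-WT arrays. Slide 2 held 1 BAT-WT, 4 BAT-KO and 3 gWAT-WT arrays, and slide 3 held 1 gWAT-WT and 4 gWAT-KO arrays. Slide thus went largely with group. Levels are given as log2 of the background-corrected probe signal over the 75th percentile of all probes of the same array, so 0 is the level of that percentile and 1 unit is a doubling. A probe counted as detected on an array where the scanner software marked it well above background.

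The labels were checked first with Pgam1 itself. In BAT its level was 7.94, 7.93, 8.07 and 7.82 in WT and 6.20, 6.13, 6.03 and 6.43 in KO, a fall of 1.74 (SE 0.11, adjusted p = 1.10e-05, limma with Benjamini-Hochberg adjustment over all genes tested, as for every adjusted p here). In gWAT its level was 5.07, 5.15, 5.67 and 5.56 in WT and 6.50, 6.42, 6.38 and 5.95 in the arrays labelled KO, a rise of 0.95 (SE 0.19, adjusted p = 0.0139). Pgam1 thus went against the label in gWAT, and a direction with genotype there is that of the labels. The brown adipocyte genes Cidea and Cpt1b were higher in the same arrays labelled KO, by 3.41 and 4.23. The other Pgam1 probe moved in the same directions, with means of 6.55 in BAT-WT and 4.90 in BAT-KO, and 3.93 in gWAT-WT and 4.95 in gWAT-KO. Where either probe lies relative to the floxed exons is not given in the sources used here. The array's 75th percentile ranged from 401.3 to 451.3 in BAT-WT and from 570.3 to 916.2 in the other groups, and 50% to 62.2% of probes were detected on each array.

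As background, Zic1 is a zinc finger factor and Lhx8 a LIM homeodomain factor, both used as markers of classical brown adipocytes of the interscapular region. Tbx15 is a T-box factor of brown and some subcutaneous fat. Hox genes lie in clusters whose order follows the body axis, from members active towards the head to members active towards the tail, and fat depots differ in which of them they express. Wt1 marks the mesothelium, the cell layer that covers visceral fat, and visceral fat progenitors, while Tcf21 is a helix-loop-helix factor of visceral mesenchyme. In whole tissue, fewer cells of a type and less RNA per cell cannot be told apart.

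Promoter sequence was at hand for 4 of the 9 genes, and it is shown because these genes stand for both sides of the depot pattern: Zic1 and Lhx8, whose levels ran closest together, Hoxa5, which changed in BAT, and Tcf21, which was detected only in gWAT. Each line holds the 250 bases before the RefSeq start of transcription, 5′ to 3′ on the minus strand of GRCm38.p6. Capitals mark matches on either strand to the TATA box TATAAA, the CCAAT box CCAAT, the GC box GGGCGG, the E-box CANNTG and the homeodomain core TAATTA.
Zic1, chr9:91365769-91366018: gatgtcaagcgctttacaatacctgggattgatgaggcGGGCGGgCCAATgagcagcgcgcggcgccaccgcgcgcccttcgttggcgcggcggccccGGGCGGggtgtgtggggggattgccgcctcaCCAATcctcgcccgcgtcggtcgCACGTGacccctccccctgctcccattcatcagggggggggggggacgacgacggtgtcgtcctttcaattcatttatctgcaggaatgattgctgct
Lhx8, chr3:154330561-154330810: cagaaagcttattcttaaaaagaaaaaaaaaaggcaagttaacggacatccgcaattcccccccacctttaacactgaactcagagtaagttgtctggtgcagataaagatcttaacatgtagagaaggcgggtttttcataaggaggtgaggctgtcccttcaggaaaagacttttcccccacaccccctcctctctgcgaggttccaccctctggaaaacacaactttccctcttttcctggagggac
Hoxa5, chr6:52204588-52204837: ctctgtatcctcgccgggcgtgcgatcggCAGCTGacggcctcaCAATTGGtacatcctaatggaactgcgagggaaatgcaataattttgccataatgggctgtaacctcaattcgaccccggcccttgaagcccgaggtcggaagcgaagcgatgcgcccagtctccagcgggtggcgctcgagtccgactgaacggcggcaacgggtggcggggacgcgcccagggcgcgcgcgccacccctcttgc
Tcf21, chr10:22820144-22820393: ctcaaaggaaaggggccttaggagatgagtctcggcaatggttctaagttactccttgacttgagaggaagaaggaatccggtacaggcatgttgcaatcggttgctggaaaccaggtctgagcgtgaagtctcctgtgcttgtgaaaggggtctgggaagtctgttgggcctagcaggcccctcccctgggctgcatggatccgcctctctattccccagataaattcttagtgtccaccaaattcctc
The Zic1 window held 2 CCAAT boxes, 2 GC boxes and 1 E-box, and 27 CpG dinucleotides, more than 91.4% of the 32851 promoter windows of this length. The Hoxa5 window held 2 E-boxes, 1 CCAAT box that overlaps an E-box, and 28 CpG. Neither the Lhx8 window, with 4 CpG, nor the Tcf21 window, with 5, matched any of the 5 motifs, and none of the 4 windows held TATAAA or TAATTA. Of all windows, 12.4% held TATAAA, 33.8% CCAAT, 32.7% GGGCGG, 66.2% CANNTG and 4.84% TAATTA, and the median window had 6 CpG. The GC content was 66.0% for Zic1 and 46.0% for Lhx8.

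The depot pattern was present in both genotypes. Of the 9 factors, 8 could be tested, and all 8 differed between BAT and gWAT in WT mice, where 64.7% of 14296 genes tested did. The same 8 differed, each in the same direction, in mice labelled KO, where the share was 46.1% of 14443 genes. Zic1, Lhx8, Tbx15 and Hoxa5 were higher in BAT (35.5% of all genes were called higher there in WT and 23.4% in KO), and Hoxc8, Hoxc9, Wt1 and Tcf21 were higher in gWAT (29.3% and 22.7%). The levels of all 8 did not overlap between depots in either genotype, as for 60.8% of genes tested in WT and 43.2% in KO. A gene entered a test when it was detected on all 4 arrays of at least 1 of the groups, so factors detected in 1 depot alone passed through the depot where they are high. Of all calls, 54.8% were higher in BAT in WT (70.9% with arrays scaled by Actb and Rplp0, 43.2% with spike-in probes) and 50.8% in KO (30.9% and 33.9%).

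**Figure D1:**
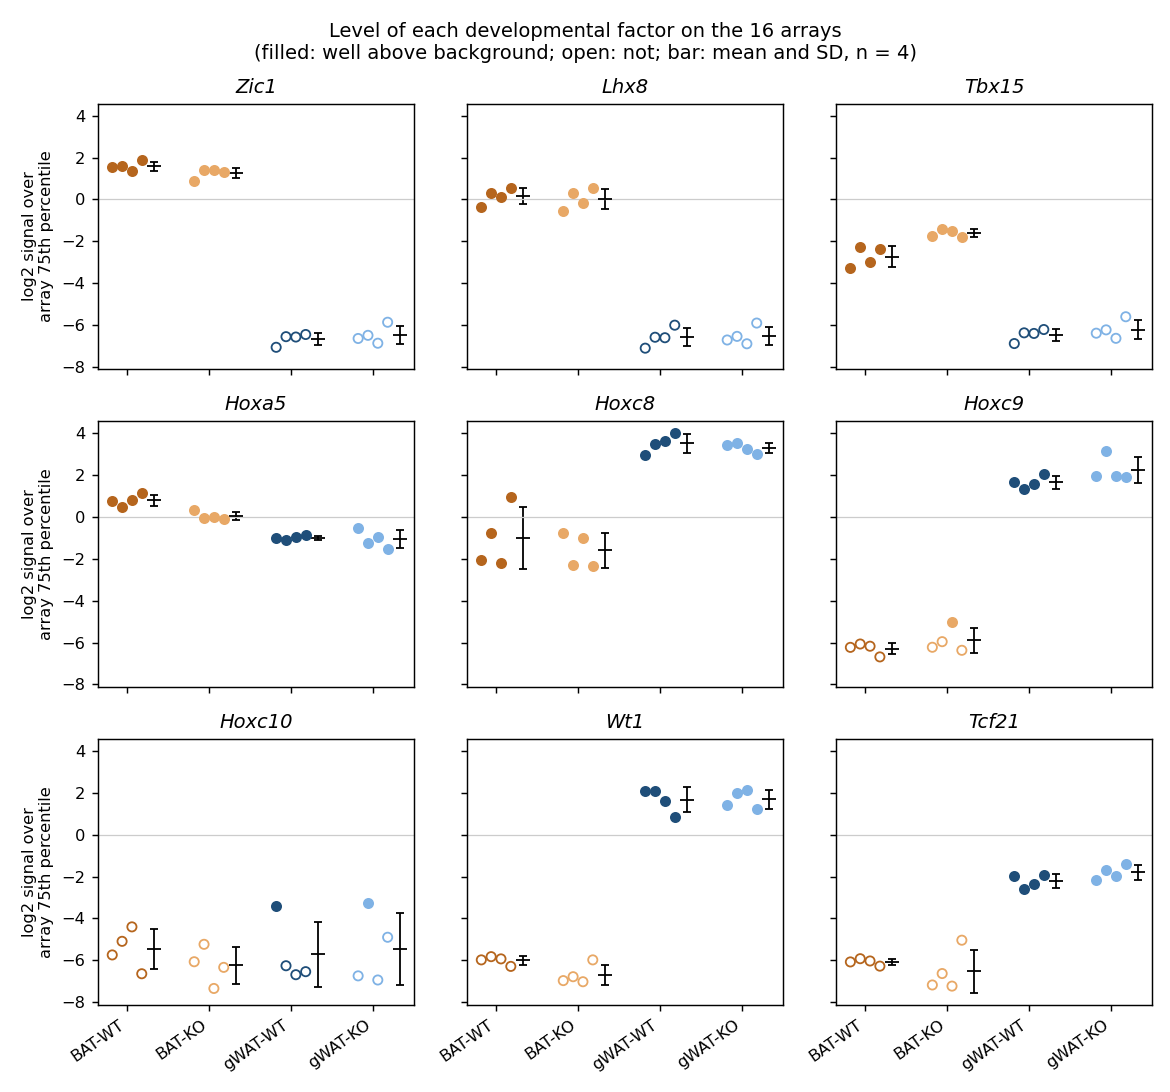
Level of the 9 factors on each of the 16 arrays, as log2 signal over the array's 75th percentile, with 1 panel per gene and 4 arrays per group. Filled circles are arrays where the probe was well above background, open circles arrays where it was not, and black bars give the mean and SD. Zic1, Lhx8 and Tbx15 are filled in BAT and open in gWAT, Hoxc9 (apart from 1 BAT array), Wt1 and Tcf21 the reverse.

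Zic1 was detected in BAT alone. Its level was 1.57, 1.59, 1.33 and 1.87 in BAT-WT and 0.90, 1.41, 1.41 and 1.33 in BAT-KO, and it was not well above background on any of the 8 gWAT arrays. BAT was at least 66.0-fold higher than gWAT in WT (adjusted p = 3.96e-08) and at least 46.0-fold higher in KO (adjusted p = 1.45e-06). Here and below, a bound sets the mean of the detected group against the mean over the other arrays of the higher of 2 values, the lowest signal among probes well above background on that array and the probe's own reading. The adjusted p beside a bound is that of the limma test on the measured readings, and the bound itself was not tested. For factors below these floors, the floor mean was −3.96 in BAT-WT, −4.72 in BAT-KO, −4.45 in gWAT-WT and −4.26 in gWAT-KO. A bound in WT and a bound in KO thus rest on different floors. The measured gWAT means were −6.67 in WT and −6.47 in KO. From high to low the groups ran BAT-WT and BAT-KO, which overlapped, then gWAT, where background leaves no order.

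Lhx8, by its brighter probe, stood at −0.36, 0.30, 0.12 and 0.54 in BAT-WT and at −0.57, 0.30, −0.19 and 0.54 in BAT-KO, with no detection on the 8 gWAT arrays. By this probe BAT was at least 24.3-fold higher in WT (adjusted p = 6.39e-07, gWAT mean −6.58) and at least 19.4-fold higher in KO (adjusted p = 2.34e-06, gWAT mean −6.52). The other Lhx8 probe read differently: it was detected on all 16 arrays, with means of −1.41 in BAT-WT, −1.76 in BAT-KO, −2.15 in gWAT-WT and −2.52 in gWAT-KO. Its depot difference was 0.74 in WT (SE 0.19, adjusted p = 0.00876) and 0.75 in KO (SE 0.22, adjusted p = 0.0213), so both probes put BAT higher, by very different amounts.

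Tbx15 had a low signal in BAT. It read −3.29, −2.29, −3.00 and −2.37 in BAT-WT and −1.75, −1.40, −1.49 and −1.78 in BAT-KO, while none of the 8 gWAT arrays detected it. BAT was at least 3.29-fold higher than gWAT in WT (adjusted p = 5.73e-06, gWAT mean −6.48) and at least 6.30-fold higher in KO (adjusted p = 2.58e-06, gWAT mean −6.22). From high to low the groups ran BAT-KO, BAT-WT, which did not overlap, then gWAT, with no order below background. The other Tbx15 probe was detected on none of the 16 arrays.

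Hoxa5, a homeobox factor from the middle of its cluster, was detected on every array. It read 0.78, 0.47, 0.79 and 1.14 in BAT-WT and 0.33, −0.035, 0.0019 and −0.092 in BAT-KO. In gWAT it read −1.02, −1.10, −0.97 and −0.87 in WT and −0.53, −1.27, −0.94 and −1.52 in KO. The depot difference was 1.79 (SE 0.15, adjusted p = 1.66e-05) in WT, or 3.45-fold, and 1.11 (SE 0.21, adjusted p = 0.00305) in KO, or 2.17-fold. From high to low its order was BAT-WT, BAT-KO, then both gWAT groups, which did not differ beyond their spread.

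On the gWAT side, Hoxc8 was detected on all 16 arrays but scattered in BAT. It read −2.03, −0.79, −2.22 and 0.98 in BAT-WT and −0.74, −2.31, −0.99 and −2.36 in BAT-KO. In gWAT it read 2.94, 3.49, 3.65 and 4.0 in WT and 3.44, 3.54, 3.27 and 3.01 in KO. All 8 gWAT arrays lay above all 8 BAT arrays, and the genotypes overlapped within each depot. gWAT exceeded BAT by 4.54 in WT (the BAT minus gWAT difference was −4.54, SE 0.65, adjusted p = 3.45e-04) and by 4.92 in KO (−4.92, SE 0.38, adjusted p = 2.56e-05).

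Hoxc9, the neighbour of Hoxc8 in the cluster, was detected on all gWAT arrays. It read 1.65, 1.32, 1.60 and 2.04 in gWAT-WT and 1.94, 3.16, 1.98 and 1.93 in gWAT-KO, with 3 of the 4 KO arrays inside the WT range. No BAT-WT array and 1 of 4 BAT-KO arrays, replicate 3, detected it. gWAT was at least 49.1-fold higher in WT (adjusted p = 7.50e-08, BAT mean −6.29). In KO the mean was 2.25 in gWAT and −5.89 in BAT (adjusted p = 2.34e-06), the BAT mean resting mostly on readings below background. Hoxc10, the next gene of the cluster, was detected on 1 array of gWAT-WT, at −3.40, and 1 of gWAT-KO, at −3.29, and entered no test.

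Wt1 and Tcf21 were detected on all 8 gWAT arrays and on no BAT array. Wt1 read 2.11, 2.07, 1.63 and 0.82 in gWAT-WT and 1.41, 1.98, 2.15 and 1.22 in gWAT-KO, and gWAT was at least 49.3-fold higher than BAT in WT (adjusted p = 4.64e-07, BAT mean −6.01) and at least 85.4-fold higher in KO (adjusted p = 1.77e-06, BAT mean −6.69). In both, the genotypes overlapped in gWAT. Tcf21 read −1.96, −2.60, −2.37 and −1.92 in gWAT-WT and −2.17, −1.68, −1.97 and −1.38 in gWAT-KO. For Tcf21, gWAT was at least 3.38-fold higher in WT (adjusted p = 9.63e-07, BAT mean −6.08) and at least 7.60-fold higher in KO (adjusted p = 8.27e-05, BAT mean −6.53). The gWAT mean of Wt1 was 1.66 in WT and 1.69 in KO, and that of Tcf21 was −2.21 and −1.80. The BAT floor was −3.96 in WT and −4.72 in KO, so the higher bounds in KO do not measure a larger depot difference.

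The exact permutation test over arrays gave p = 0.0286, two-sided, for each of these 16 depot comparisons, the smallest value that 4 against 4 arrays allow. This p adds no support, since the list was made of known depot markers. Factors detected in 1 depot alone also entered through the depot where they are high. With slide as a block over all 16 arrays, the 8 factors differed between depots in both genotypes and in the same directions. In WT the difference of Hoxc8 shrank from −4.54 to −2.39 (adjusted p = 0.00843). In KO, where each depot lay on a slide of its own and the slide effect came from the WT arrays, Hoxc8 was at −4.28 (adjusted p = 0.00384), Hoxa5 at 1.27 (adjusted p = 0.0357) and Zic1 at 8.02 (adjusted p = 5.23e-07).

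**Figure D2:**
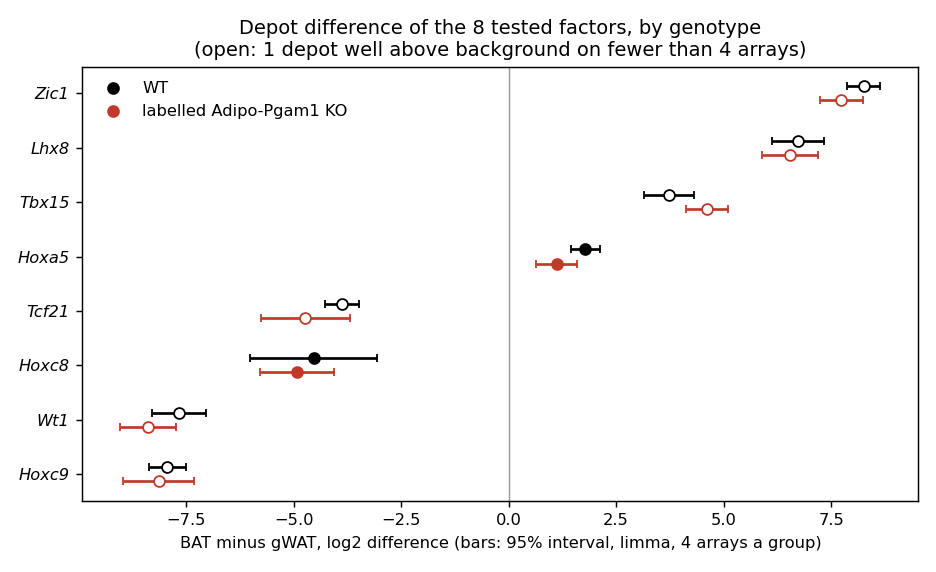
BAT minus gWAT log2 difference of the 8 tested factors in WT (black) and in mice labelled KO (red), with 95% intervals from limma, 4 arrays per group. Open circles are factors that 1 depot detected on fewer than 4 arrays, whose measured difference rests on readings below background. Every factor lies on the same side of 0 in both genotypes.

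The genotypes were then compared for how large the depot difference was. None of the 8 factors passed the test of the interaction of genotype and tissue, which 48.4% of 14814 genes passed. 2 factors lay just above the threshold: Hoxa5, whose depot difference was smaller by 0.67 in KO (interaction −0.67, 95% interval −1.25 to −0.097, adjusted p = 0.0514), and Tbx15, whose difference was larger by 0.88 (95% interval 0.13 to 1.63, adjusted p = 0.0511). Their unadjusted p was 0.0250 and 0.0248, the only ones of the 8 under 0.05. For Zic1 the interval of the interaction ran from −1.15 to 0.10, for Lhx8 from −1.07 to 0.69 and for Hoxc8 from −2.12 to 1.36. The values for all but Hoxa5 and Hoxc8 include readings below background, which move with each array's scaling, and 3 of the 8, Hoxc9, Tbx15 and Tcf21, passed when such readings were raised to each array's lowest signal well above background, a setting chosen after seeing the data.

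For all genes the genotypes were set side by side in the same way. Of the 8985 genes that differed between depots in WT and were tested in both genotypes, 39.6% also differed in KO in the same direction, which is 56.1% of the KO calls. Among those with at least a 4-fold difference in WT the share was 67.3%. The 8 of 8 factors are set beside these shares as a description, since the list was made of known depot markers.

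Within BAT, 2 of the 5 factors tested changed with genotype, Hoxa5 down and Tbx15 up, where 61.5% of 14273 genes changed in either direction. Hoxa5 fell by 0.74 (SE 0.16, adjusted p = 0.00340), to 59.8% of its WT level, and its 4 KO arrays all lay below the 4 WT arrays. Tbx15 rose by 1.13 (SE 0.23, adjusted p = 0.00265), or 2.19-fold, and its 4 KO arrays all lay above the WT arrays. Groups that do not overlap were found for 57.1% of genes in this comparison, so such a separation was common. Slide went largely with genotype in BAT. The exact permutation test gave p = 0.0286 for both, the smallest possible.

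Zic1 and Lhx8 did not pass the test in BAT, and their KO and WT arrays overlapped. The change of Zic1 was −0.33 (95% interval −0.69 to 0.032, adjusted p = 0.101), so the interval reaches from a fall of 0.69 to almost no change. That of Lhx8 was −0.13 (−0.75 to 0.49, adjusted p = 0.693), and its other probe gave −0.36 (SE 0.16, adjusted p = 0.0767). Hoxc8 gave −0.58 with a wide interval (−2.22 to 1.05, adjusted p = 0.502), and without replicate 4 of BAT-WT, the array at 0.98, the change was 0.080.

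The scaling of the arrays bears on these values. Scaling by the spike-in probes moved the median change of all genes in BAT from −0.081 to 0.44, and scaling by Actb and Rplp0 moved it to −0.67. Relative to that median, Hoxa5 stood at −0.66, Tbx15 at 1.21 and Zic1 at −0.25, values that a shift of whole arrays cannot change. With quantile normalization, which can change them, they were −0.74, 1.13 and −0.28. As absolute changes, Hoxa5 lost its call with the spike-in probes (−0.22, adjusted p = 0.395) and Tbx15 with Actb and Rplp0 (0.54, adjusted p = 0.0629), while Zic1 (−0.92, adjusted p = 2.71e-04) and Lhx8 (−0.72, adjusted p = 0.0236) passed there and turned to 0.20 and 0.39 with the spike-in probes. With slide as a block, which leaves replicate 4 as the only BAT-WT array beside the KO arrays, Hoxa5 was at −1.08 (adjusted p = 0.00488), Tbx15 at 0.76 (adjusted p = 0.106) and Hoxc8 at −2.58 (adjusted p = 0.0269).

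Lists of cell type markers moved with genotype in BAT as well, where 61.5% of all genes tested changed in either direction. A change in the number of such cells and a change in their RNA per cell cannot be told apart here. The summed signal of 9 adipocyte genes fell from 3297 to 3777 times the 75th percentile in WT to 1080 to 1538 in KO, and 9 of 9 fell past the threshold. The summed signal of 10 adipose progenitor genes rose from 123 to 131 in WT to 165 to 200 in KO (9 of 10 rose), and that of 10 macrophage genes from 32.3 to 45.8 in WT to 111 to 163 in KO (8 of 10 rose). 12 skeletal muscle genes summed to 1.15 to 1.98 in WT and to 2.42 to 163 in KO, with replicate 1 at 163 and replicate 3 at 29.2. Replicate 1 was also the lowest KO array for Zic1 and Lhx8, and without it the Zic1 change was −0.21. Replicate 3 was the highest KO array for Zic1, at 1.41, and read −0.19 for Lhx8. The part of these cell types in the values of Zic1, Lhx8, Hoxa5 and Tbx15 was not tested.

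**Figure D3:**
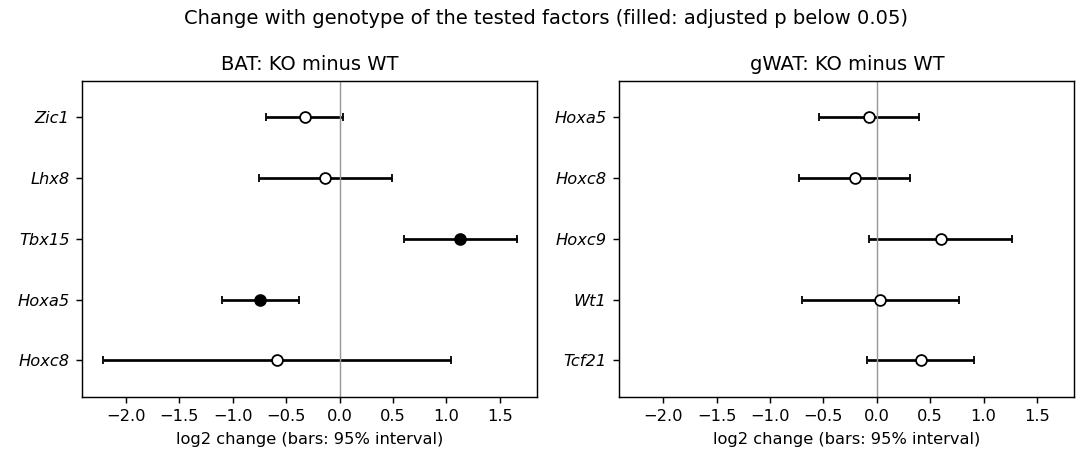
KO minus WT log2 change of the factors tested in BAT (left) and in gWAT (right), with 95% intervals from limma, 4 arrays per group. Filled circles passed the test at an adjusted p below 0.05: Hoxa5 at −0.74 and Tbx15 at 1.13 in BAT, and none in gWAT.

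In gWAT none of the 5 factors tested changed with the genotype label, where 18% of 14141 genes did and 24.3% had groups that do not overlap. By limma 0 of the 5 also had an unadjusted p below 0.05, and the methods' t-test gave 0. Wt1 was at 0.033 (95% interval −0.70 to 0.77, adjusted p = 0.955) and Hoxa5 at −0.071 (−0.54 to 0.40, adjusted p = 0.840), so changes of up to 0.70 down or 0.77 up for Wt1 lie within its interval. Hoxc8 was at −0.21 (−0.72 to 0.31, adjusted p = 0.562). The largest values were those of Hoxc9, 0.60 (−0.072 to 1.27, adjusted p = 0.185), and Tcf21, 0.41 (−0.090 to 0.91, adjusted p = 0.222). Hoxc9 rested on replicate 2 of gWAT-KO, the array at 3.16, without which it was 0.30. Slide also went largely with genotype in gWAT. With slide as a block, which leaves replicate 4 as the only gWAT-WT array beside the KO arrays, Wt1 was at 0.87, outside the interval above. Hoxc8 was then at −0.68, Hoxa5 at −0.19, Hoxc9 at 0.21 and Tcf21 at 0.12.

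Genes of brown adipocytes rose in gWAT, while Zic1 and Tbx15 were not detected there. Of the 8 brown adipocyte genes tested in gWAT, 6 rose in the arrays labelled KO, where 18% of all genes tested changed in either direction. The median over the 8 was 3.25, against 0.048 for all genes tested. Cidea, a lipid droplet protein, rose by 3.41 (SE 0.33, adjusted p = 0.00126) and Cpt1b, which carries fatty acids into mitochondria, by 4.23 (SE 0.39, adjusted p = 0.00104). Ucp1, the uncoupling protein of thermogenic adipocytes, was detected on 0 of 4 WT arrays and on 3 of 4 labelled KO, and was not tested. Zic1 and Tbx15 were detected on 0 of these 4 KO arrays, and Lhx8 on 0 by its brighter probe and on 4 by the other. In BAT 8 of 10 brown adipocyte genes fell, where 61.5% of all genes tested changed in either direction. Their median was −1.44, against −0.081 for all genes tested. Zic1 and Lhx8 stayed detected on all 4 BAT-KO arrays.

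**Figure D4:**
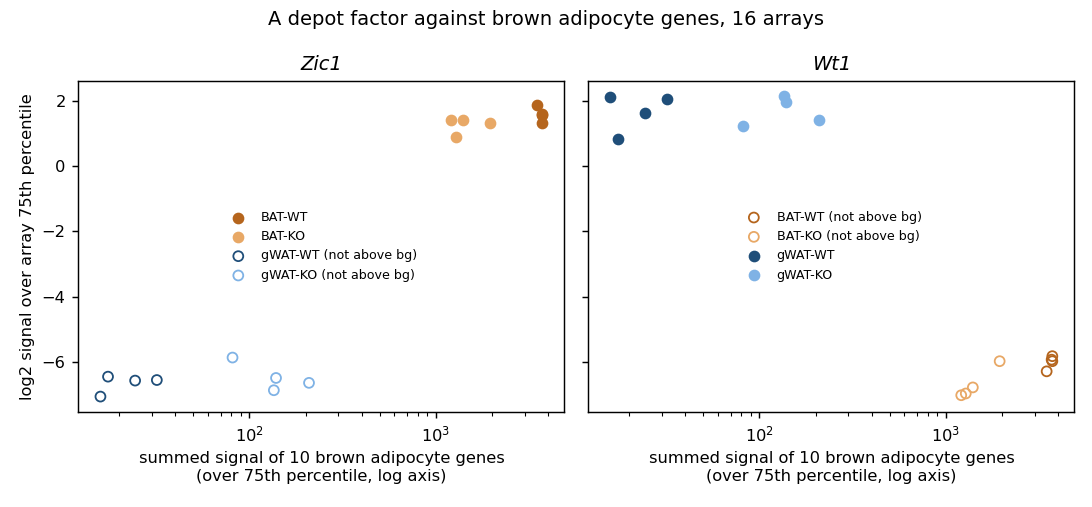
Level of Zic1 (left) and Wt1 (right) as log2 signal over the 75th percentile against the summed signal of 10 brown adipocyte genes on a log axis, 1 point per array and 4 arrays per group, with open circles where the factor was not well above background. The gWAT-KO arrays lie to the right of the gWAT-WT arrays, at 81.1 to 209 against 15.8 to 31.8, with Zic1 still open and Wt1 still at 1.22 to 2.15.

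Wt1 stood beside genes of the mesothelium. All 10 mesothelial genes on the array were higher in gWAT than in BAT in both genotypes, as were 29.3% of all genes in WT and 22.7% in KO. Msln, a surface protein that defines these cells, was at least 169-fold higher in WT. The summed signal of the 10 genes was 2.56 to 3.89 over the 8 BAT arrays, 14.5 to 63.7 in gWAT-WT and 22.2 to 39.3 in gWAT-KO. Replicate 4 of gWAT-WT was lowest both for that sum, at 14.5, and for Wt1, at 0.82. With genotype in gWAT, 0 of the 10 passed the limma test, 0 also at an unadjusted p under 0.05, and the part of the mesothelium in the depot difference of Wt1 was not tested. In BAT, Msln was detected on 0 WT arrays and on 3 of 4 KO arrays. Of the 10, 20% passed the interaction test, against 48.4% of all genes. They were Msln at 2.25 (SE 0.69, adjusted p = 0.0144) and Lrrn4 at −2.18 (SE 0.62, adjusted p = 0.0100). The Msln value rests on BAT-WT readings below background, at a mean of −5.95. Its BAT-KO mean was −3.85, where the lowest signals well above background in BAT-WT averaged −3.96. Of 10 epididymis genes, whose tissue lies next to gWAT, 1 was detected on all 4 arrays of each group, and their sum was 0.83 to 4.80 in gWAT-WT and 0.86 to 4.45 in gWAT-KO. Single arrays differed: replicate 1 of gWAT-WT (sum 4.80) and replicate 3 of gWAT-KO (sum 4.45) each detected 7 of the 10. Replicate 4 of each gWAT group detected 5. The part of epididymal tissue in the gWAT levels was not tested.

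Genes whose level ran most like each factor over the 16 arrays were named as a description, since all 16 points share the split between depots. For Zic1 they were Lhx8 (Pearson r = 0.997), the long non-coding RNA Lncbate10 (0.992) and AI606473 (0.989). The nearest to Tbx15 was Irx5 (0.983), to Hoxc8 Aldh1a1 (0.970), and to Hoxc9 Lrrc4c (0.989). Wt1 ran closest to Upk1b (0.998) and Gpm6a (0.997), both on the mesothelial list, and Tcf21 to Fam180a (0.986).

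The other Hox genes place the 4 Hox factors in their clusters. Of 35 others on the array, 21 were tested between depots in each genotype, 4 being higher in BAT and 10 in gWAT in WT, and 2 and 11 in KO. That is 66.7% in WT against 64.7% of all genes tested, and 61.9% in KO against 46.1%. Among the 12 tested Hox genes of paralogs 1 to 5, 4 were higher in BAT and 3 in gWAT in WT, with a median of 0.37. Among the 8 of paralogs 6 to 8, 0 were higher in BAT and 6 in gWAT, with a median of −1.08. In KO these medians were 0.20 and −1.30. Of the 4 of paralog 9, 1 was higher in BAT and 3 in gWAT in WT, and those 3 were detected on no BAT-WT array and entered the test through gWAT.

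Genes of the Hoxc cluster and of paralog 9 are named for their place, chosen after their values were seen. Along the Hoxc cluster in WT the BAT minus gWAT difference was −0.39 for Hoxc4 (adjusted p = 0.0256), 0.28 for Hoxc5 (0.228), −0.39 for Hoxc6 (0.162), and −4.54 for Hoxc8, with Hoxc9 not detected in BAT. Hoxb9 and Hoxd9, the other genes of paralog 9 that BAT-WT did not detect, were at least 3.09-fold and 2.77-fold higher in gWAT. Hoxa9 went the other way in WT, at 0.69 (adjusted p = 0.00425). Spearman's rho between paralog number and the difference over 24 Hox genes was −0.63 in WT and −0.72 in KO, and over the 21 without the factors described here −0.59 and −0.71, given as a description over genes that share arrays and clusters, some of them below background in BAT.

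**Figure D5:**
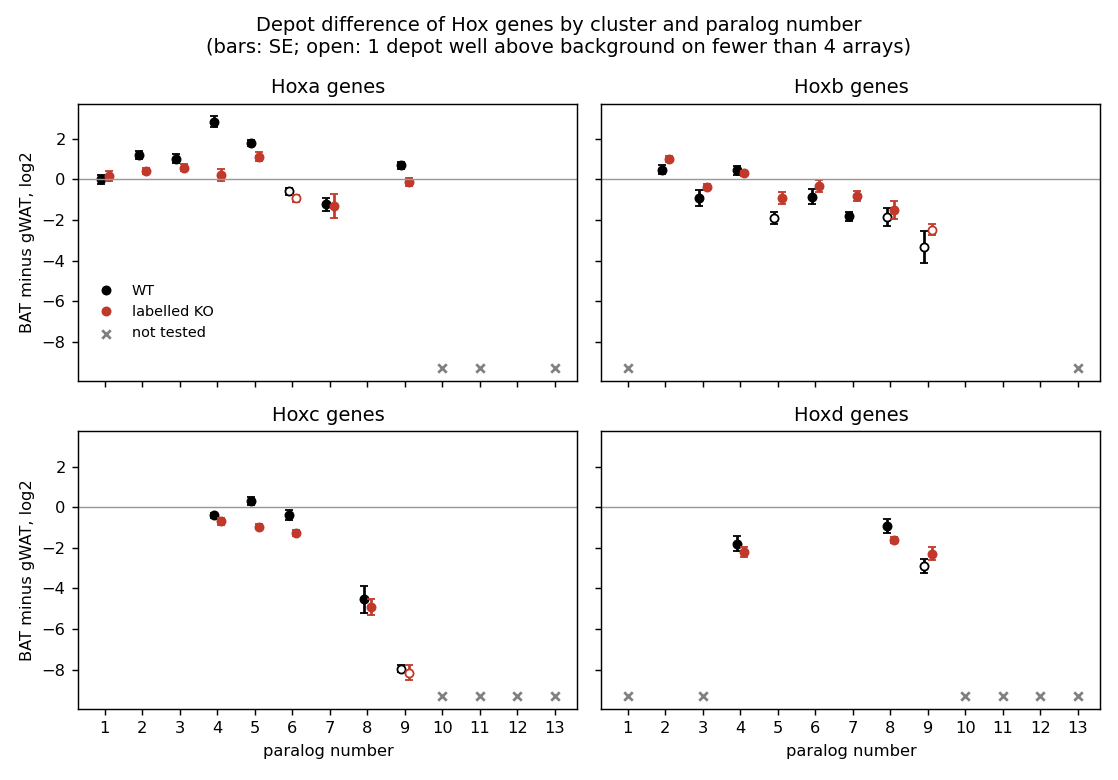
BAT minus gWAT log2 difference of the Hox genes by cluster (panels) and paralog number (horizontal axis), in WT (black) and in mice labelled KO (red), with SE bars from limma, 4 arrays per group. Open circles mark genes that 1 depot detected on fewer than 4 arrays, and crosses at the foot genes that were not tested. The lowest values are those of Hoxc8 and Hoxc9.

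Of the 19 other Hox genes tested in BAT, 7 fell and 2 rose with genotype, or 47.4% against 61.5% of all genes tested, with a median of −0.18 against −0.081 for all genes tested. Hoxa4 fell by 2.03 (SE 0.20, adjusted p = 5.02e-05), Hoxc5 by 1.81 (SE 0.15, adjusted p = 2.51e-05) and Hoxa3 by 1.08 (SE 0.18, adjusted p = 7.66e-04). Hoxd9 was detected on no BAT-WT array and on all 4 BAT-KO arrays, at a mean of −3.86, at least 1.08-fold higher. Its limma test gave a rise of 1.53 (SE 0.32, adjusted p = 0.00287), which rests on BAT-WT readings below background. The split depended on the scaling: with the spike-in probes 2 fell and 6 rose, and with Actb and Rplp0 10 fell and 1 rose. Hoxa4, the neighbour of Hoxa5, was higher in BAT by 2.85 in WT (SE 0.26, adjusted p = 2.67e-05) and by 0.22 in KO (SE 0.29, adjusted p = 0.562), and this change of the depot difference passed the test (−2.63, SE 0.42, adjusted p = 1.89e-04). Hoxaas3, an antisense RNA of this region with a probe of its own, named after its value was seen, gave 0.11 in BAT (adjusted p = 0.701).

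In gWAT 2 of 21 other Hox genes changed with the label, or 9.52% against 18% of all genes tested. They were Hoxc4 at −0.62 (SE 0.13, adjusted p = 0.0173) and Hoxa6 at −0.51 (SE 0.15, adjusted p = 0.0480), and with the spike-in probes 0 of the other Hox genes fell and 3 rose. Hox proteins bind DNA together with cofactors of the Pbx, Meis and Pknox families. Of 8 cofactor genes tested in BAT, 3 rose in KO, or 37.5% against 61.5% of all genes tested that changed in either direction. Pknox2 rose by 1.40 (SE 0.15, adjusted p = 7.57e-05), Pbx3 by 0.57 (SE 0.10, adjusted p = 0.00147) and Meis3 by 0.42 (SE 0.11, adjusted p = 0.00832). With Actb and Rplp0 the cofactor count turned to 1 up and 5 down. In gWAT 0 of the 8 passed by limma, 3 having an unadjusted p under 0.05, and 2 passed with the spike-in probes.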

How the data were processed

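The authors hybridised Cy3-labelled RNA to 1-colour Agilent mouse arrays and deposited 1 scanner file per array made with Agilent Feature Extraction 10.7.1.1, and a table of normalized values. The deposited intensity used was the processed signal, already background-subtracted. Each array's log2 intensity was set against its 75th percentile, control spots and outlier flags were left out, and spots of a probe were averaged. The table, intensity over each array's 75th percentile on a linear scale, served as an alternative after log2. The 35886 RefSeq probes were named through RefSeq (91.9% matched). Genes detected on all 4 arrays of at least 1 group were tested with limma 3.58.1 in R 4.3.3 (lmFit, eBayes), on the arrays of each comparison, with Benjamini-Hochberg adjustment over all genes tested and a threshold of 0.05. The interaction used all 16 arrays. The tests were checked on simulated data. Named were the 9 factors, Pgam1, cell type markers, the 3 genes most like each factor, and up to 4 genes of each list with the largest change past the threshold. Some of the genes so named are not reported here. The factors and lists were chosen with earlier results of these data known. Because the files lack a mean signal, the normexp alternative used the median signal. Slide was treated as a batch. The number of arrays limits the precision, and p-values measure the spread between these samples. Further alternatives were other scalings, filters, probe rules, blocks, the methods' t-test, and leaving out each array.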

Additional observations from a re-analysis of the deposited data

Results flagged for a closer look

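Within the 20 groups of 4 arrays in which a factor was detected on every array, 2 held an array far from the others, and chance alone gives about 1 in 20. Zic1 in BAT-KO had replicate 1 at 0.90, with a gap to the next array that took up a share of 0.839 of the group's range. Hoxc9 in gWAT-KO had replicate 2 at 3.16, with a share of 0.964.

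Signal was also present in data outside the comparisons. The other probe of Lhx8 was detected on all 4 gWAT-WT arrays at a mean of −2.15, where the probe used for the gene was detected on none. Hoxc10, which entered no test, was detected in gWAT-WT replicate 1, at −3.40, and in gWAT-KO replicate 2, at −3.29. Causes of these readings were not tested.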

How the results depend on the processing

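The depot differences were the firmest values. All 8 factors differed between BAT and gWAT in both genotypes under every alternative that could be fitted, with no sign turned, except that the filter on detection in every group left 2 testable, Hoxa5 and Hoxc8, in WT and in KO. Leaving out each array gave 8 to 8 in WT and 8 to 8 in KO. Within BAT the count of 2 stayed at 2 to 2 without each array and became 1 with the spike-in probes and 1 with the mean of all probes of a gene, where the Tbx15 probe below background entered. It became 3 with Actb and Rplp0 (Hoxa5, Zic1 and Lhx8, Tbx15 being lost) and 3 with no filter on dim probes. Slide as a fixed block leaves 1 BAT-WT array beside the KO arrays, and gave Hoxa5 at −1.08, Tbx15 at 0.76 and Hoxc8 at −2.58. With slide as a random block over all 16 arrays, Hoxa5 (−0.79, adjusted p = 0.00498) and Tbx15 (1.09, adjusted p = 0.00355) passed. Hoxc8 was then at −0.87 (adjusted p = 0.240). Within gWAT the count of 0 stayed at 0 to 0 without each array and became 1 with the spike-in probes (Hoxc9, 1.06).

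The interaction was the least firm. Its count of 0 became 4 with normexp, 1 with quantile normalization, 4 with Actb and Rplp0, 1 with the filter on every group, 2 with the replicate number as a block, 4 without the 14-week arrays, 3 with readings raised to the lowest detectable signal, and 0 to 2 without each array. The cause was not tested. Over all genes, the 2541 calls in gWAT ranged from 185 (slide as a block) to 5371 (spike-in probes), the 8781 in BAT fell to 5848, the 6665 between depots in KO to 1783 and the 7165 of the interaction to 3268 with slide as a block over all 16 arrays. Of the calls in BAT 44.8% were rises (78.9% with spike-in probes, 17.7% with Actb and Rplp0), in gWAT 55.9% (95.6% with spike-in probes, 71.1% centred on medians), and of interactions 43.4% were positive (16.3% with Actb and Rplp0).

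Signs turned only in values that had not passed the test. With the spike-in probes in BAT, Lhx8 was 0.39 and Zic1 0.20, and in gWAT Hoxa5 was 0.39 and Hoxc8 0.26. Hoxa5 in gWAT was 0.050 with arrays centred on their medians and 0.081 without the 14-week array. Wt1 in gWAT was −0.051 with quantile normalization and −0.024 with Actb and Rplp0. Interactions turned for Lhx8 (0.060 with normexp, 0.076 with quantile normalization, 0.0082 with the brightest probe chosen by mean log2 signal, a setting added after seeing the data), Hoxc9 (0.24 with quantile normalization, 0.58 with slide as a block), Wt1 (0.16 with quantile normalization) and Tbx15 (−0.11 with the mean of all probes). Leaving out 1 array gave ranges across 0 for Hoxc8 (−0.99 to 0.080) and Lhx8 (−0.30 to 0.063) in BAT, Hoxa5 (−0.25 to 0.081) and Wt1 (−0.24 to 0.19) in gWAT, and the interactions of Hoxc8 (−0.78 to 0.28), Hoxc9 (−0.49 to 0.10) and Lhx8 (−0.38 to 0.010).

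Deviations of same-numbered samples correlated at −0.12 to 0.51, a range that includes pairs of KO with WT mice. Between BAT and gWAT, replicates 1 to 4 gave 0.17, 0.098, 0.11 and −0.038 in WT. In KO they gave 0.12, 0.031, 0.25 and −0.12. These values do not settle which samples share a mouse, and the numbers were not read as pairs. The replicate block gave 2 members in BAT, 0 in gWAT, 8 and 8 between depots, and 2 for the interaction. Slide as a block could not be fitted for the depots in KO on their 8 arrays alone. For factors below background in 1 depot, signal over background limits the difference to a bound.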

Other observations

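Of 43 other developmental factors, a list chosen with earlier results known, 23 were tested in BAT, where 7 rose and 6 fell in KO (12 and 1 with the spike-in probes, 5 and 12 with Actb and Rplp0). That is 56.5% changed against 61.5% of all genes tested. Prrx1, a homeobox factor of limb and mesenchyme, rose by 2.37 (SE 0.18, adjusted p = 1.83e-05) and Osr2, an odd-skipped factor, by 2.09 (SE 0.24, adjusted p = 1.26e-04). Irx2 was detected on no BAT-WT array and on all 4 BAT-KO arrays, at least 2.07-fold higher, and Six2 on 2 and 4 arrays. In gWAT 1 rose and 4 fell of 22, or 22.7% against 18% of all genes tested. Prrx1 rose by 0.97 (SE 0.15, adjusted p = 0.00665), while Bnc2 fell by 1.34 (SE 0.17, adjusted p = 0.00297) and Ebf2, known from brown fat precursors, by 1.09 (SE 0.22, adjusted p = 0.0143).

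Between depots, Tbx5, a T-box factor of the forelimb and heart, was detected, as Zic1 was, on all 8 BAT arrays and on no gWAT array, at least 11.9-fold higher in BAT in WT and 6.10-fold in KO. Gata6 was higher in gWAT, with a BAT minus gWAT difference of −3.91 (SE 0.17) in WT and −2.63 (SE 0.23) in KO, and its interaction passed the test (1.28, SE 0.29, adjusted p = 0.00250). Of the 43, 6 were higher in BAT and 11 in gWAT in WT out of 23 tested, and 12 and 10 in KO out of 26. That is 73.9% in WT against 64.7% of all genes tested, and 84.6% in KO against 46.1%.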
